A study of Sus scrofa with 12 samples.

Results

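The genes described here carry out glycolysis, the making and export of lactate, and the entry of pyruvate into the mitochondrion. They were chosen by name from the authors' deposited comparison of striatum after deep hypothermic circulatory arrest (DHCA) with sham striatum. Of 35 names, 27 had a row there, out of 21223 rows, and 8 had no row under their name (the glucose transporter genes SLC2A1 and SLC2A3, and GAPDH, PGAM1, PDHA1, PDK1, MPC1 and MPC2). Of those 8, GAPDH, PGAM1, PDHA1, PDK1 and MPC2 have an identifier in a reference table of pig gene names, so these 5 are given below by identifier and are not counted among the 27.

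Total RNA labelled as striatum came from 12 newborn piglets. The 6 DHCA piglets were put under 4% isoflurane, cannulated through the sternum and cooled on cardiopulmonary bypass to 18 °C. Their circulation was then stopped for 30 min, bypass brought them back to 37 °C, and recovery lasted 6 h. The 6 sham piglets received 4% isoflurane, and the labels describe no surgery, bypass, cooling or recovery time for them, so each of these steps cannot be told apart from the arrest. The design sets gene expression after the whole procedure against that under anaesthesia.

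Library totals ran from 1377809 (Sham 5) and 2515816 (Sham 1) to 12933536 counts (Sham 6). Sham 1 and Sham 5 also had the smallest mitochondrial shares of counts, 4.01% and 7.30%, against 10.6% to 26.3% in the other libraries. Of 12 markers of striatal spiny neurons, the main cell type of this region, all had counts. Their summed share was 0.0219% of counts in Sham 4 and 0.233% to 0.643% in the other libraries. Markers of other brain regions (8 genes such as NEUROD6 and SLC17A7) summed to 0.115% in Sham 4 and 0.00208% to 0.00799% elsewhere, so the markers of Sham 4 go against its striatal label. Results are therefore also given without Sham 4, or without Sham 1, Sham 4 and Sham 5 together. Over the whole table edgeR called 26 genes with all libraries, 10 without Sham 4 and 1 without Sham 1, Sham 4 and Sham 5.

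Glycolysis splits glucose into pyruvate in the cytosol, with hexokinase, phosphofructokinase and pyruvate kinase as its controlled steps. The PFKFB enzymes set the level of fructose 2,6-bisphosphate, the strongest known activator of phosphofructokinase. Pyruvate is either reduced to lactate by lactate dehydrogenase and exported by monocarboxylate transporters, or carried into the mitochondrion and oxidised by pyruvate dehydrogenase. Pyruvate dehydrogenase kinases (PDK) switch that enzyme off and its phosphatase PDP1 switches it on. In brain, astrocytes are known for lactate release and neurons for lactate use.

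The 2 members with the smallest p were regulators, not enzymes of the chain itself. The level fitted by edgeR was 2.68-fold higher after DHCA for PDK4, a pyruvate dehydrogenase kinase. For PFKFB4, an enzyme that makes and breaks down fructose 2,6-bisphosphate, it was 1.49-fold higher. Neither passed the edgeR test over all genes. Of 27 members, 25 passed the filter on low counts and 0 were called (adjusted p under 0.05 by edgeR), where 0.186% of all 14004 tested genes were called. At an unadjusted p under 0.05, PDK4 and PFKFB4 were the only members, both higher in DHCA, where 7.9% of all tested genes passed that p (3.43% higher and 4.47% lower). The DESeq2 Wald test called PDK4 and PFKFB4, against 0.813% of all genes (0.491% higher and 0.323% lower). That share is over 22005 genes with a count, including those without an adjusted p, and not over the 14004 filtered genes. Limma-voom with sample quality weights called PFKFB4, against 1.48% of all genes (0.921% higher and 0.557% lower). Without Sham 1 and Sham 5, 4 members (PFKFB3, PFKFB4, PDK2 and PDK4) were higher at an unadjusted p under 0.05, where 8.28% of all genes passed (4.07% higher and 4.21% lower). Without Sham 1, Sham 4 and Sham 5 these were 3 (PFKFB3, PFKFB4 and PDK4), where 5.68% passed (3.14% higher and 2.54% lower). Among the tested enzymes between glucose and pyruvate the log2 fold changes ran from -0.29 (PFKP) to 0.41 (HK2). Counted by sign, 14 of the 25 members had a higher and 11 a lower fitted level in DHCA, with a median of 0.030 on the log2 scale against -0.0030 over all tested genes. For 18 of 25 the size was under 0.30. In bulk tissue, fewer cells of a type and less RNA per cell cannot be told apart.

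**Figure D1:**
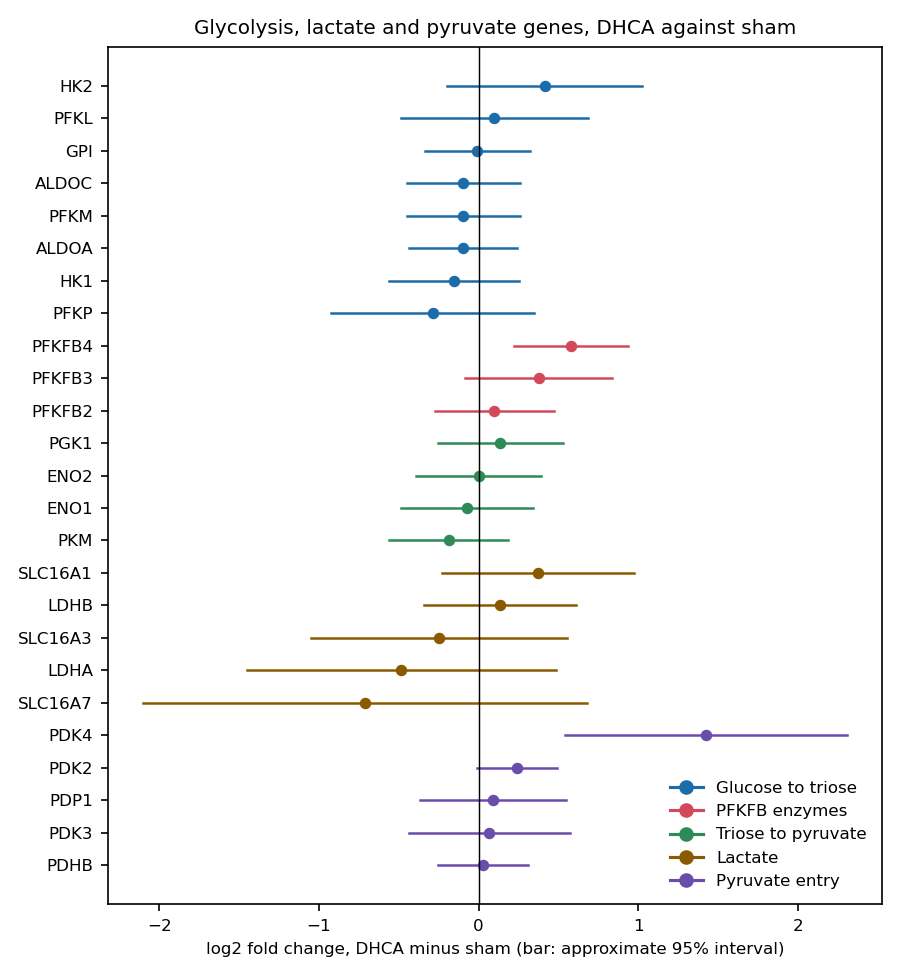
Log2 fold change (x axis, DHCA minus sham, 6 libraries per group, edgeR) of the 25 tested members (y axis), coloured by role, with approximate 95% intervals as bars. PDK4 (1.42) and PFKFB4 (0.58) are the members whose interval lies wholly above 0, and the bars of all other members cross 0.

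The entry of pyruvate into the mitochondrion held the member with the largest difference. PDK4 (ENSSSCG00000015334, Sscrofa11.1 chromosome 9, 75246952 to 75260137, minus strand) encodes the kinase isoform known to be induced by fasting and by glucocorticoids. Its CPM values (counts scaled to a common library size with TMM factors) were lowest at 20.2, with a median of 40.3 and a highest value of 131, in sham. In DHCA they were 84.5, 156 and 218 in the same order. Of the DHCA libraries 5 lay above every sham library. The groups overlapped because DHCA 2 (84.5 CPM) lay below Sham 2 (92.96 CPM) and Sham 6 (131 CPM). Sham libraries averaged 58.6 ± 43.5 and DHCA libraries 159 ± 46.4 CPM (mean ± SD, 6 each). The fitted difference was 1.42 on the log2 scale (SE 0.41, edgeR adjusted p = 0.275). DESeq2 gave a log2 fold change of 1.44 (SE 0.42) with adjusted p = 0.0499, at the edge of the threshold.

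The PDK4 difference kept its direction in all 21 alternatives, but its size varied. With each library left out, the log2 fold change was largest without Sham 6, at 1.83 (edgeR adjusted p = 0.0881). It was smallest without Sham 1, at 1.24 (edgeR adjusted p = 0.292), and 1.27 without Sham 4 (edgeR adjusted p = 0.457). With Sham 1, Sham 4 and Sham 5 left out it was 0.85 (SE 0.37, edgeR adjusted p = 0.83), and those 3 libraries held 20.2, 27.4 and 41.3 CPM. In the authors' deposited table PDK4 stands at 1.52 on the log2 scale, with a standard error of 0.41 and an adjusted p of 0.0223.

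PDK2, the widely expressed kinase isoform, was the member whose groups did not overlap. It was at 51.9 CPM at the lowest, 53.3 at the median and 55.5 at the highest in sham, and at 59.0, 63.2 and 67.5 CPM in DHCA. All 6 DHCA libraries therefore lay above all 6 sham libraries, which was so for 1 of 25 tested members and 0.993% of all tested genes (0.678% higher in DHCA). Without Sham 1, Sham 4 and Sham 5, PFKFB4 joined it, where 3.4% of all genes did not overlap (1.85% higher and 1.55% lower). The step was small, from 53.7 ± 1.57 to 63.3 ± 3.67 CPM (log2 fold change 0.24, SE 0.12, edgeR adjusted p = 0.672). PDK2 (chromosome 12, 26274616 to 26298755) shares 52.2% of its exonic bases with SAMD14 on the opposite strand. The counting command sets no strand option, so its counts are less certain. In the authors' deposited table its adjusted p is 0.395.

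The other genes of this step showed smaller differences. PDK3 was at 27.5 to 91.7 CPM in sham and 61.7 to 79.6 in DHCA (log2 fold change 0.067, SE 0.23), with its lowest value in Sham 1. PDK1, which is known to respond to hypoxia and was found by identifier only, had 0.072 (SE 0.27) and ran from 15.9 to 65.2 CPM in sham libraries and from 31.9 to 58.1 in DHCA libraries. The fold changes of PDK1 and PDK3 thus lay within their standard errors of 0. PDHB, which encodes the beta subunit of pyruvate dehydrogenase, was at 37.7 to 47.7 CPM in sham libraries and 38.4 to 50.5 in DHCA libraries (0.030, SE 0.13). PDHA1, the alpha subunit, found by identifier, had 0.032 (SE 0.13). For both subunits the fold change was close to 0 and narrowly bounded, from -0.25 to 0.31 for PDHB and -0.26 to 0.32 for PDHA1 (approximate 95% intervals). The phosphatase gene PDP1 was at 103 to 228 CPM in sham libraries and 122 to 187 in DHCA libraries (0.092, SE 0.21). MPC2, a subunit of the mitochondrial pyruvate carrier, found by identifier, had 0.14 (SE 0.26).

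**Figure D2:**
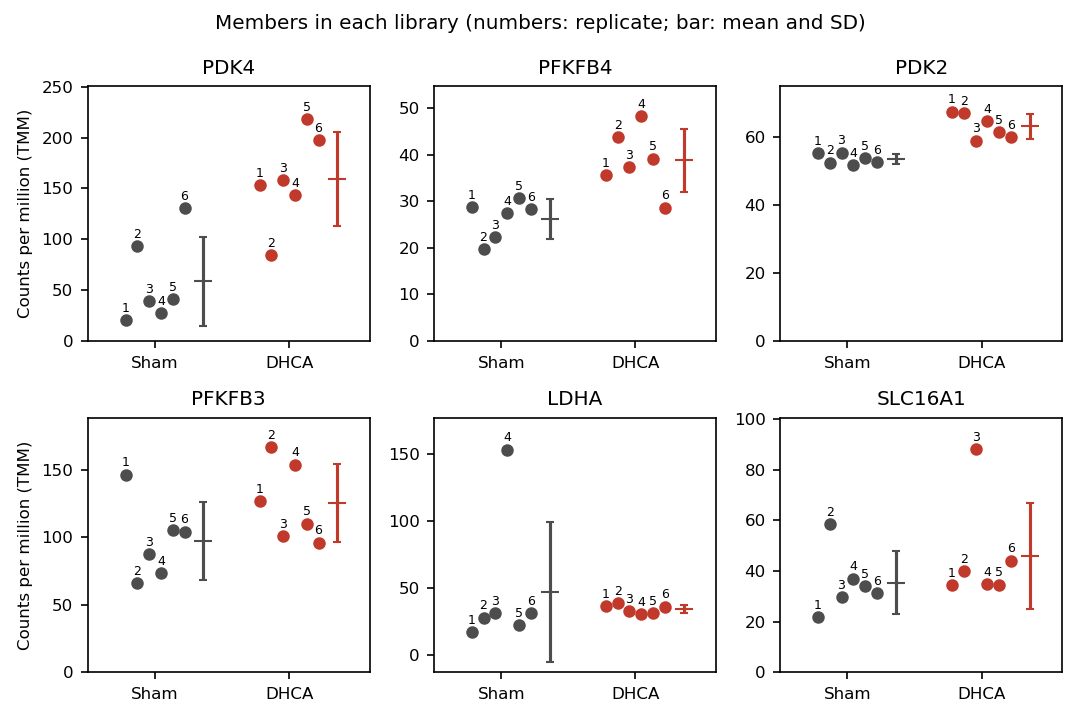
TMM-scaled CPM (y axis, starting at 0 except for LDHA, whose SD bar reaches below 0) of 6 members in each sham (grey) and DHCA (red) library, numbered by replicate, with the mean and SD beside them. PDK2 separates the groups without overlap, PDK4 overlaps through DHCA 2, Sham 2 and Sham 6, and LDHA and SLC16A1 each have 1 library far above the rest (Sham 4 and DHCA 3).

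Among the genes that regulate phosphofructokinase, the 3 tested PFKFB genes had positive fold changes and 0 were called. PFKFB4 (ENSSSCG00000011353, chromosome 13, 31212562 to 31259749, minus strand) is known as a hypoxia-inducible isoform. Its CPM was 19.7 at the lowest, 27.9 at the median and 30.6 at the highest in sham, and 28.6, 38.3 and 48.4 in DHCA. Of the DHCA libraries 5 lay above every sham library, and DHCA 6 (28.6 CPM) lay among the upper sham values. The means were 26.2 ± 4.23 and 38.8 ± 6.81 CPM (log2 fold change 0.58, SE 0.17, edgeR adjusted p = 0.275). Unlike that of PDK4, this difference was not smaller without Sham 1, Sham 4 and Sham 5 (log2 fold change 0.73, SE 0.19, edgeR adjusted p = 0.37). DESeq2 gave adjusted p = 0.0324, and limma-voom with quality weights adjusted p = 0.0464. The authors' deposited table gives 0.59 (standard error 0.16) with an adjusted p of 0.0331.

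PFKFB3, the isoform with the strongest kinase activity and the main one of astrocytes, had a lowest value of 65.7, a median of 95.8 and a highest of 146 CPM in sham. In DHCA these were 96.0, 118 and 166 CPM. The groups overlapped, with Sham 1 at 146 CPM above 4 of the DHCA libraries (log2 fold change 0.38, SE 0.21, edgeR adjusted p = 0.75). With each library left out it ran from 0.28 (without DHCA 2 or without Sham 2) to 0.53 (without Sham 1, edgeR adjusted p = 0.391), and it was 0.30 without Sham 4. PFKFB2, the isoform of heart and of insulin signalling, ran from 12.7 to 21.3 CPM in sham and from 15.3 to 22.96 in DHCA (0.099, SE 0.17). PFKFB1, the liver isoform, had 73 counts in all 12 libraries together, between 2 and 13 in each, and did not pass the filter.

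The preparatory phase of glycolysis, from hexokinase to aldolase, had 8 tested members, of which 2 had positive and 6 negative fold changes, with a median of -0.096 on the log2 scale. None was called, and none was at an unadjusted p under 0.05 by edgeR. HK2, the inducible hexokinase, was at 9.38 CPM at the lowest, 21.2 at the median and 24.8 at the highest in sham, and at 14.2, 21.9 and 45.2 CPM in DHCA. The lowest sham value was that of Sham 4, and DHCA 2 (45.2 CPM) and DHCA 4 (33.1 CPM) stood above all sham libraries. The fold change was 0.41 (SE 0.29, edgeR adjusted p = 0.783), with 0.25 without Sham 4 and 0.19 without DHCA 2. HK1, the constitutive brain hexokinase, ran from 139 over a median of 187 to 246 CPM in sham libraries and from 109 over 178 to 207 in DHCA libraries (-0.15, SE 0.19). The HK1 value ran from -0.23 without Sham 2 to -0.065 without DHCA 3.

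Phosphofructokinase, the committed step, has 3 subunit genes, and all 3 overlapped between groups. PFKP, the platelet-type subunit, ranged from 80.4 over a median of 168 to 256 CPM in sham libraries and from 82.0 over 148 to 204 in DHCA libraries (log2 fold change -0.29, SE 0.30). With each library left out it ran from -0.44 (without Sham 2) to -0.16 (without Sham 4). Its direction was not stable, with 0.25 when Sham 1, Sham 4 and Sham 5 were left out. PFKM, the muscle-type subunit, had -0.097 (SE 0.16) and PFKL, the liver-type subunit, 0.098 (SE 0.27). The isomerase gene GPI averaged 343 ± 53.2 CPM under sham conditions and 341 ± 45.5 after DHCA (-0.0066, SE 0.15). The aldolase genes ALDOA, the muscle and general form, and ALDOC, the brain form typical of astrocytes, had -0.099 (SE 0.16) and -0.095 (SE 0.16).

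TPI1, which encodes triose phosphate isomerase, could not be assessed. It had 53 counts in all 12 libraries, between 1 and 13 in each, and did not pass the filter. In the annotation used for counting, 78.4% of its exonic bases are shared with other genes (SPSB2 on the opposite strand and USP5 on the same strand). The counting command sets no option to assign reads that overlap more than 1 gene. ALDOC shares 58.3% of its exonic bases with another gene, PDHB 48.4%, PFKFB1 44.0%, PKM 28.1% and GAPDH 20.8%, so their levels are less certain. PDK4, PFKFB4, PFKFB3, HK1, HK2, PGK1, ENO1, LDHA, LDHB and SLC16A1 share 0 bases.

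The payoff phase of glycolysis, from triose phosphate to pyruvate, had 4 tested members, and all 4 approximate 95% intervals lay within a 1.5-fold change in either direction with all libraries. The PKM interval reached past it without Sham 2, Sham 3, Sham 5, Sham 6, DHCA 1, DHCA 2 or DHCA 4, and that of PGK1 without Sham 2, Sham 3 or Sham 6. Pyruvate kinase, PKM, ran from 582 over a median of 780 to 1006 CPM in sham libraries and from 498 over 711 to 825 in DHCA libraries (log2 fold change -0.19, SE 0.17, edgeR adjusted p = 0.822). The PKM value ran from -0.26 without Sham 2 to -0.11 without Sham 1. PGK1, phosphoglycerate kinase and a classical hypoxia-inducible factor target, was at 53.5, 111 and 124 CPM (lowest, median, highest) in sham and at 104, 113 and 119 CPM in DHCA. The low sham value was that of Sham 1, and without that library the fold change was 0.0030 (SE 0.11) against 0.14 (SE 0.18) with it. ENO1, the general enolase, had -0.072 (SE 0.19) and ENO2, the neuronal enolase, 0.0017 (SE 0.18). GAPDH, often used as a reference gene and found by identifier only, averaged 1463 ± 258 CPM under sham conditions and 1477 ± 159 after DHCA (0.014, SE 0.16), and PGAM1, phosphoglycerate mutase, had 0.039 (SE 0.14).

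Bounded in this way, 14 of the 25 tested members had an interval inside a 1.5-fold change with all libraries, and 9 to 15 with each library left out (9 without Sham 2, Sham 3 or Sham 6). They were 5 of the 8 members from hexokinase to aldolase, all 4 from triose phosphate to pyruvate, PFKFB2, PDHB, PDP1, PDK2 and PDK3. With all libraries, none of the 5 tested lactate genes was bounded as narrowly.

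Single libraries set the values of several lactate genes. LDHA, which encodes the lactate dehydrogenase subunit that favours the making of lactate, was at 153 CPM in Sham 4 and at 17.1 to 31.2 CPM in the other 5 sham libraries, against 30.2 to 38.3 CPM in DHCA (medians 29.3 and 34.1 CPM). With all libraries its log2 fold change was -0.48 (SE 0.45, edgeR adjusted p = 0.822). Without Sham 4 the sign turned, to 0.37 (SE 0.18, edgeR adjusted p = 0.695), so no direction can be read for this gene. Sham 4 is the library with the low share of spiny neuron markers. Whether its other make-up plays a part in the LDHA value was not tested. DESeq2 gave LDHA no p. LDHB, the subunit that favours the use of lactate, ran from 58.2 (Sham 1) to 182 CPM (Sham 4) in sham and from 137 to 168 CPM in DHCA (0.13, SE 0.22).

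The monocarboxylate transporter genes differed in direction and 0 were called. SLC16A1 encodes MCT1, known from endothelium, oligodendrocytes and astrocytes. It was at 21.7, 32.6 and 58.4 CPM (lowest, median, highest) in sham and 34.5, 37.4 and 88.2 CPM after DHCA (log2 fold change 0.37, SE 0.28, edgeR adjusted p = 0.80). The highest values of the groups were those of Sham 2 and DHCA 3, and these libraries also had the highest shares of oligodendrocyte marker counts in their groups, 3.36% and 6.23%. Sham 5, with a share of 3.20%, was at 34.0 CPM of SLC16A1. The range of that share (7 of 8 markers found, all with counts) was 1.06% to 3.36% in sham and 0.493% to 6.23% in DHCA. Its part in the SLC16A1 values was not tested. The fold change was 0.061 without DHCA 3 and 0.59 without Sham 2 (edgeR adjusted p = 0.4).

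SLC16A7, which encodes the high-affinity neuronal transporter MCT2, had 478 counts in all. It was at 0.388, 5.22 and 19.3 CPM (lowest, median, highest) in sham and 1.67, 3.21 and 11.2 CPM in DHCA. The log2 fold change was -0.71 (SE 0.65, edgeR adjusted p = 0.821), with -0.018 without Sham 4, which held the highest sham value, and -1.30 without DHCA 3, which held the highest DHCA value. SLC16A3, which encodes MCT4, the lactate exporter of astrocytes, was low in every library, from 1.08 to 6.66 CPM in sham libraries and from 1.44 to 4.02 in DHCA libraries (-0.25, SE 0.37). With each library left out the SLC16A3 value ran from -0.47 (without Sham 2) to -0.058 (without Sham 5).

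**Figure D3:**
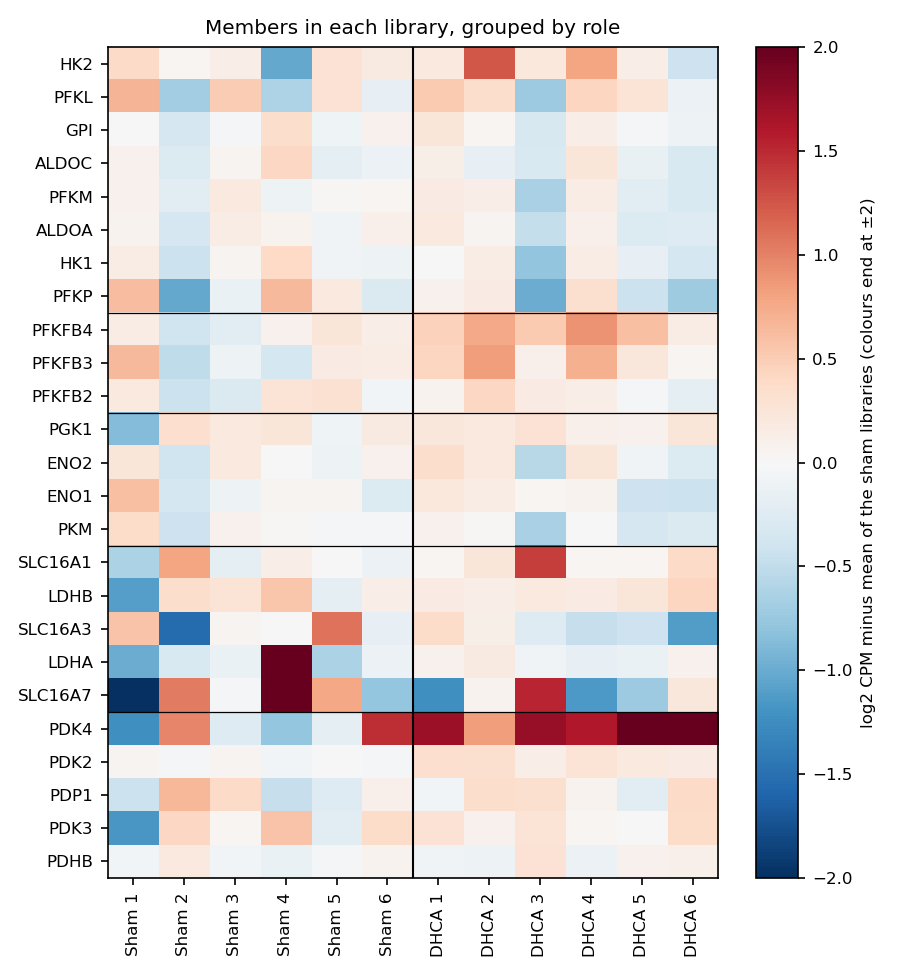
Each cell is the log2 CPM of 1 of the 25 tested members (rows, grouped by role) in 1 library (columns) minus the mean of the 6 sham libraries, with colours ending at ±2. PDK4 stands out along the DHCA columns, LDHA and SLC16A7 in Sham 4, and many enzymes are low in Sham 2 and DHCA 3.

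In the sham group Sham 2 held the lowest value for 14 of the 25 tested members, and in the DHCA group DHCA 3 for 10. Each of these libraries also held the highest value of its group for 4 members. Against the sham mean, the median member lay at -0.30 on the log2 scale in Sham 2. In DHCA 3 it lay at 0.11, above DHCA 5 (-0.017) and DHCA 6 (-0.097). The share of all tested genes lowest in these libraries was not counted, so the 14 and 10 cannot be read as particular to the members. The 27 members took 0.384% of counts in Sham 2 and 0.361% in DHCA 3, against 0.385% to 0.566% in the other libraries. Sham 2 and DHCA 3 had the highest oligodendrocyte shares of their groups, as given above. They also had the lowest astrocyte marker shares of their groups, 0.517% and 0.440%. DHCA 3 had the lowest neuron and spiny neuron marker shares of its group, 0.161% and 0.233%, while Sham 2 was not the lowest of its group in either. DHCA 6 had a member share of 0.385% with 1.09% oligodendrocyte counts and the highest mitochondrial share, 26.3%. Sham 5 and Sham 1, with 3.20% and 2.72% oligodendrocyte counts, had member shares of 0.499% and 0.550%. The part of cell make-up or mitochondrial share was not tested. The median SD of log2 CPM was 0.413 among sham and 0.282 among DHCA libraries for the members, and 0.513 and 0.339 for all tested genes.

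Levels between genes were compared as CPM per kilobase of exon, in sham, for tested members and the 5 genes found by identifier. By sham mean, most enzymes of the chain lay above the PFKFB and PDK genes, except HK2 (3.70) and PFKL (12.4), of which the latter lay below PDK4 (16.5). The sham range of PDK4 (5.67 to 36.7) overlapped those of PFKM (27.75 to 37.2) and PFKP (19.6 to 62.4). It also overlapped those of HK1 (34.5 to 61.2) and PGK1 (24.2 to 56.0). In the preparatory phase, GPI (163 ± 25.3) was highest on this scale, with no overlap to ALDOC (90.3 ± 16.3). The ranges of ALDOC, ALDOA, HK1, PFKP and PFKM each overlapped the next. The place of GPI rests on the summed exon lengths, 2105 bases for GPI, 6413 for ALDOC and 7304 for ALDOA. Without division by length, GPI (sham mean 343 CPM) lay below ALDOA (519 CPM) and ALDOC (579 CPM). An order between genes of such unlike summed lengths is therefore uncertain. HK2 (3.70 ± 1.02) lay below all other tested members there. GAPDH was highest in the payoff phase at 232 ± 41.0, and PGK1 (45.8 ± 11.6) lay below PKM (93.6 ± 16.2) with no overlap. Lactate dehydrogenase was mostly LDHB (82.3 ± 27.3) with less LDHA (15.9 ± 17.7), with overlap only through Sham 4 and Sham 1. Among the PDK genes the sham means were 16.5 ± 12.3 for PDK4, 9.46 ± 0.277 for PDK2, 8.51 ± 3.16 for PDK1 and 6.87 ± 2.44 for PDK3, whose ranges overlapped from one to the next. In DHCA the mean of PDK4 was 44.8 ± 13.1.

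**Figure D4:**
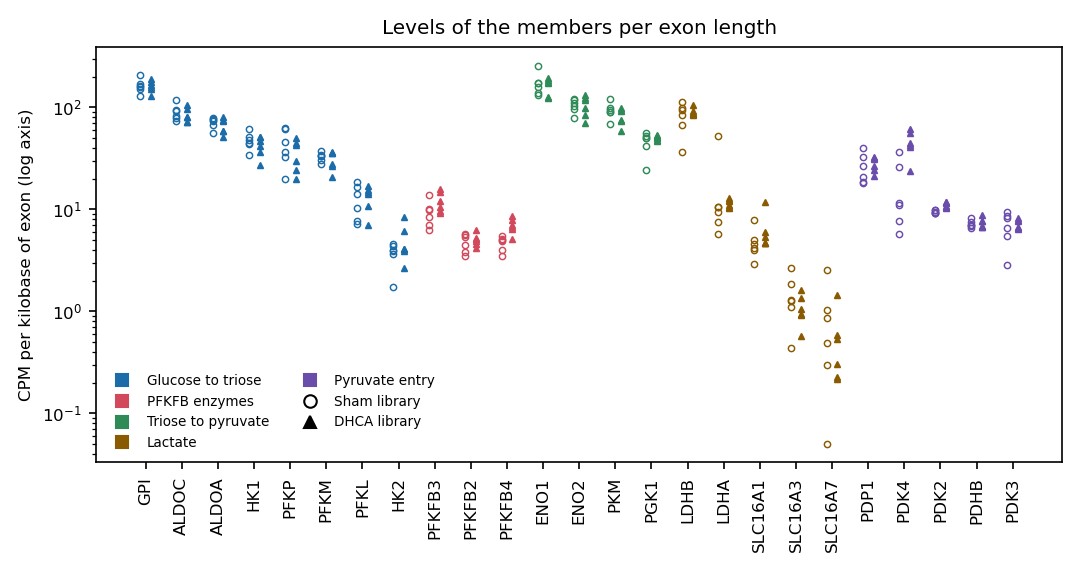
CPM per kilobase of exon (log y axis) of the 25 tested members, ordered by sham mean within each role, with open circles for sham and filled triangles for DHCA libraries. GPI and ENO1 lie above 100 in every library, and ENO2, ALDOC, PKM and LDHB in some. The monocarboxylate transporters lie near or below 10, and PDK4 shows the widest gap between the group means. The order of genes within a role depends in part on the summed exon lengths used.

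Ratios of isoforms within a library do not depend on its scaling. PDK4 to PDK2 was 0.58 at the lowest, 1.18 at the median and 3.96 at the highest in sham, and 2.01, 3.95 and 5.65 in DHCA, so that 3 DHCA libraries lay above all sham libraries and 4 sham libraries below all DHCA libraries. PFKFB3 to PFKFB2 was 1.25, 2.01 and 2.60 in sham and 1.85, 2.37 and 2.88 in DHCA. HK2 to HK1 was 0.028, 0.091 and 0.106 in sham and 0.073, 0.107 and 0.163 in DHCA. LDHA to LDHB was 0.458 in Sham 4, 0.094 to 0.160 in the other sham libraries and 0.115 to 0.153 in DHCA. ENO1 to ENO2, ALDOA to ALDOC and SLC16A3 to SLC16A1 overlapped as well, so that the groups overlapped in all 7 ratios.

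Other genes of carbohydrate metabolism, from lists chosen with earlier results known, are given by list, and edgeR called 0 in each. Of 39 further genes of glycolysis, lactate and pyruvate, 29 were tested, 16 with positive and 13 with negative fold changes (median 0.018). The smallest p was that of SLC2A5, the fructose transporter gene typical of microglia, which averaged 11.3 ± 5.66 CPM under sham conditions and 5.26 ± 1.82 after DHCA (log2 fold change -1.05, SE 0.32, edgeR adjusted p = 0.321). Of the DHCA libraries 5 lay below every sham library. The summed share of 7 microglial markers, all with counts, was 0.0162% to 0.0356% in sham and 0.0145% to 0.0303% in DHCA, and its part was not tested. HIF1A, the oxygen-regulated transcription factor gene, was at 26.0, 79.2 and 140 CPM (lowest, median, highest) in sham and 106, 142 and 195 CPM in DHCA (0.83, SE 0.32, edgeR adjusted p = 0.488), and had 0.44 without Sham 1, Sham 4 and Sham 5. The hexokinase-domain gene HKDC1 had -1.17 (SE 0.58), with 29.9 CPM in Sham 1 and -0.53 without it.

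In the glycogen list (15 tested, 8 positive, 7 negative, median 0.0039), PGM2, a gene of the phosphoglucomutase family, had the smallest p of all the genes named here. What its level means for glycogen was not tested. PGM2 was at 14.6, 16.5 and 28.1 CPM (lowest, median, highest) in sham and 25.6, 32.3 and 39.5 CPM in DHCA. Only Sham 2 (28.1 CPM) reached into the DHCA range, above DHCA 1. The fold change was 0.77 (SE 0.19, edgeR adjusted p = 0.161). PGM2 was called without Sham 2 (edgeR adjusted p = 0.0416), by DESeq2 (adjusted p = 0.0302) and by limma-voom with quality weights (adjusted p = 0.0461), and had 0.53 without Sham 1, Sham 4 and Sham 5 (edgeR adjusted p = 0.709). PHKB, a phosphorylase kinase subunit, had 0.32 (SE 0.25) and GYS1, glycogen synthase, -0.26 (SE 0.20). Without Sham 1 these were 0.16 for PHKB and -0.13 for GYS1.

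In the pentose phosphate list (6 tested) all fold changes were negative and small, with a median of -0.084, PGD at -0.30 (SE 0.23) and PGLS at -0.17 (SE 0.17). Without Sham 1 these were -0.081 for PGD and -0.11 for PGLS. In the list of redox shuttles (10 tested, 7 positive, median 0.035), the glycerol phosphate dehydrogenase genes GPD2 and GPD1 had 0.34 (SE 0.25) and -0.34 (SE 0.29), and the carrier gene SLC25A11 -0.39 (SE 0.34). Without Sham 1 these were 0.17 for GPD2, -0.17 for GPD1 and -0.22 for SLC25A11. GPD1 was at -0.59 without DHCA 3, and SLC25A11 at -0.60 without DHCA 4. In the citrate cycle list (15 tested, 10 positive, median 0.052), SDHC, a subunit of succinate dehydrogenase, had 0.47 (SE 0.23), DLST, a subunit of oxoglutarate dehydrogenase, 0.24 (SE 0.14), and SUCLG2, a succinyl-CoA ligase subunit, 0.20 (SE 0.23). Sham 1 and Sham 5 held the lowest sham values of SDHC, 19.0 and 20.6 CPM. Without these libraries SDHC had 0.23 (SE 0.18) and DLST 0.17 (SE 0.13). With each library left out SUCLG2 ran from 0.058 (without Sham 1) to 0.36 (without Sham 2).

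In the authors' deposited table, 2 of the 27 members, PDK4 and PFKFB4, have an adjusted p under 0.05, where 1.04% of its 21223 rows do. Of the 25 members tested here, 24 have the same sign in both, and ENO2 (-0.0010 in the authors' deposited table) has the opposite one. The same libraries underlie both analyses, which are thus no independent check of each other. The direction of the authors' deposited fold changes was itself read from their correlation with those computed here (0.967 across 14004 genes).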

How the data were processed

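RNA sequencing of 12 piglet libraries was analysed, grouped by the sample titles. Columns were matched through the number in each description. Per the file headers, featureCounts 1.5.1 gave the deposited raw counts per gene, from exons and with no strand option. The build is Sscrofa11.1, per the submitters' processing notes. No aligner is named in the sources used here. The count table has 18 library columns, of which the other 6 were not used. The authors' deposited comparison table holds a mean normalized signal, log2 fold changes with standard errors, a statistic (a score) whose sign is opposite to the fold change in every row, and raw and adjusted p-values, per the file headers. The submitters' processing notes name DESeq2.

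Counts were analysed in R 4.3.3 with edgeR 4.0.16. Genes passed filterByExpr by group, received TMM factors, and entered the robust quasi-likelihood F test of edgeR with group as the only term. P-values were adjusted by Benjamini-Hochberg over all 14004 tested genes, with a threshold of 0.05. The series' design text names 6 piglets in each group, whose variation the p-values reflect. The standard error and the approximate 95% interval of a log2 fold change come from the F statistic. CPM values use the TMM library sizes, and 1 CPM stands for 1.50 counts in the shallowest and 13.7 in the deepest library, which limits the precision of low genes. The counts of any pair of libraries in 1 group differed beyond sampling noise (lowest chi-square divided by its degrees of freedom 8.50). The fit was also run on simulated counts, drawn with the spread that the fit itself had estimated, and the outcome is not given here. Such counts hold no library of unlike make-up such as Sham 4, so that run cannot show how the fit handles one.

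The members and gene lists were chosen with earlier results of these data known. All members found are named. The 12 members with the smallest p are given with lowest, median and highest values, as are some others, and of each further list the 2 or 3 genes with the smallest p. Symbols were read first from the authors' deposited table, then from a reference table of pig names. Alternatives were DESeq2 1.42.0 size factors or its Wald test, limma 3.58.1 voom with sample quality weights, no filter, at least 1 CPM in 6 libraries as the filter, replicate number as a block, omission of mitochondrial and red cell genes, each library left out, and a threshold of 0.01. Omission of Sham 1 and Sham 5, with and without Sham 4, was chosen after seeing the data.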

Additional observations from a re-analysis of the deposited data

Results flagged for a closer look

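In 7 of 88 groups of 6 libraries examined (44 named genes in 2 groups), 1 library stood far from the others. The rule used flags about 5% of groups of independent, normally distributed values. CPM values of genes measured in the same libraries need not follow that, so the 7 groups cannot be weighed against this rate. Sham 4 stood apart at 153 CPM of LDHA, against 17.1 to 31.2 in the other sham libraries, and at 9.38 CPM of HK2, against 19.6 to 24.8. Sham 1 stood apart at 632 CPM of ENO1, against 326 to 433, and at 21.7 CPM of SLC2A5, against 6.396 to 12.1. DHCA 3 stood apart at 88.2 CPM of SLC16A1, against 34.5 to 44.1 in the other DHCA libraries, and at 11.2 CPM of SLC16A7, against 1.67 to 4.53. DHCA 6 stood apart at 168 CPM of LDHB, against 137 to 147.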

How the results depend on the processing

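With edgeR and all libraries 26 genes were called. The number was 179 with the DESeq2 Wald test, 207 with limma-voom and quality weights, 6 at an adjusted p under 0.01, 12 without Sham 1 and Sham 5, and 1 without Sham 1, Sham 4 and Sham 5. Leaving out each library in turn gave 9 (without DHCA 2) to 51 (without Sham 2), with 10 to 13 without Sham 3, Sham 4, Sham 5, DHCA 1, DHCA 3 or DHCA 4. Of the members, 0 were called with each library left out, 2 by DESeq2 and 1 by limma-voom. Members with no overlap numbered 1 with all libraries (0.993% of all genes) and 1 to 2 with each library left out (1.19% to 2.44% of all genes). They numbered 2 without Sham 1 and Sham 5 (2.46%) and 2 without Sham 1, Sham 4 and Sham 5 (3.4%). Those at an unadjusted p under 0.05 by edgeR numbered 2 with all libraries (7.9% of all genes) and 4 without Sham 1 and Sham 5 (8.28%). They numbered 2 to 4 with each library left out and 4 by limma-voom. For these last settings the share of all genes at that p was not counted, so no rise among the members can be read from them.

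A block by replicate number gave 8 genes called and 0 members. No pairing by number was seen. Deviations of same-numbered libraries correlated from -0.388 to 0.338, and 0 sham and 1 DHCA libraries matched best with their own number. With so few libraries these values cannot exclude that same-numbered samples were handled together.

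Of 44 named genes, 22 kept their direction in all 21 alternatives and 22, among them 14 of the 25 tested members, turned in at least 1. The turned genes had a size of at most 0.48 with all libraries, and the cause was not tested. Without Sham 1, Sham 4 and Sham 5 the turned log2 fold changes were 0.012 for HK1, 0.086 for GPI, 0.25 for PFKP, 0.022 for ALDOC, -0.055 for PGK1, 0.20 for ENO1, 0.18 for LDHA, -0.032 for LDHB, 0.23 for SLC16A3, -0.048 for PDHB, -0.25 for PDP1, -0.11 for PDK3, -0.080 for GAPDH, -0.000044 for PGAM1, -0.23 for MPC2, -0.097 for PDHA1, -0.18 for PDK1, 0.040 for PGD and -0.078 for SUCLG2. With limma-voom the turned log2 fold changes were 0.081 for GPI, 0.099 for PFKP, 0.037 for ALDOC, 0.16 for ENO1, 0.046 for LDHA, 0.096 for SLC16A3, -0.053 for PDHB, -0.063 for PDP1, -0.014 for PDK3, -0.0063 for GAPDH, -0.12 for MPC2, -0.045 for PDHA1, -0.073 for PDK1 and 0.027 for GYS1. With no filter the turned log2 fold change was 0.015 for GPI. Without Sham 1 and Sham 5 the turned log2 fold changes were -0.051 for PGK1, 0.12 for ENO1, -0.11 for LDHB, 0.11 for SLC16A3, -0.072 for PDP1, -0.18 for PDK3, -0.11 for GAPDH, -0.041 for PGAM1, -0.13 for MPC2, -0.078 for PDHA1, -0.10 for PDK1 and 0.057 for PGD. With DESeq2 size factors the turned log2 fold change was -0.012 for ENO2. With the filter of 1 CPM in 6 libraries the turned log2 fold change was -0.0016 for ENO2. With the replicate block the turned log2 fold changes were -0.016 for ENO2 and 0.034 for LDHA. Without mitochondrial and red cell genes the turned log2 fold change was -0.015 for ENO2. With each library left out, the ranges of genes that turned were -0.067 to 0.061 for GPI, -0.023 to 0.25 for PFKL, -0.14 to 0.070 for ENO1, -0.075 to 0.081 for ENO2, -0.65 to 0.37 for LDHA, -0.021 to 0.24 for LDHB, -0.040 to 0.077 for PDHB, -0.0048 to 0.26 for PDP1, -0.093 to 0.17 for PDK3, -0.051 to 0.077 for GAPDH, -0.023 to 0.075 for PGAM1, -0.018 to 0.068 for PDHA1 and -0.099 to 0.23 for PDK1.

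Depth limits low genes most. SLC16A7, SLC16A3 and HKDC1 had 478, 247 and 515 counts over all libraries, and 0.388 CPM of SLC16A7 in Sham 1 is 1 count.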
